A study of Mus musculus with 15 samples.

Results

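Purinergic receptors and ectonucleotidases were followed in tumor-associated macrophages (TAMs). The genes are 10 of the 55335 rows of the mouse expression table, taken by symbol, and each of the 10 symbols was found. They are the ATP-gated channels P2rx4 and P2rx7, the nucleotide receptors P2ry6, P2ry12, P2ry13 and P2ry14, the surface enzymes Entpd1 (CD39) and Nt5e (CD73), and the adenosine receptors Adora2a and Adora2b. The TAMs came from orthotopic hepatocellular carcinoma (HCC) grown in C57BL/6 mice from Hepa1-6 cells, a mouse hepatoma line. In the control group the HCC cells carried a control lentivirus, in the miR-144 group they overexpressed miR-144, and in the miR-451a group they overexpressed miR-451a, so that the manipulation was in the cancer cells and not in the TAMs that were sequenced. Each group held 5 samples, 15 in all, sorted on CD11b and F4/80, and described in the labels as untreated. The labels give no age, sex, batch or date, and do not say whether the samples of a group came from separate mice, and a figure legend of the study gives fewer samples per group for these data than were deposited. The SD, SE and p-values therefore measure only the spread between the deposited samples, which may be technical.

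ATP that leaves stressed or dying cells is sensed by P2X channels and P2Y receptors, and CD39 and CD73 then cut it stepwise to ADP, AMP and adenosine. Adenosine acts on the receptors encoded by Adora2a and Adora2b, which raise cyclic AMP and generally dampen inflammatory functions of macrophages, whereas P2X7 opens at high ATP and is a trigger of the NLRP3 inflammasome. In solid tumors the pathway is known as a switch between ATP as an alarm signal and adenosine as a brake on immunity.

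The overexpressed miRNAs are shown because they define the treated groups. Each mature mouse sequence was taken from RefSeq (GRCm38.p6), with the seed, bases 2 to 8, in capitals. The labels do not say which arm of miR-144 was meant, so both are given.
mmu-miR-144-5p: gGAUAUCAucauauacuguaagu
mmu-miR-144-3p: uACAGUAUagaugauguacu
mmu-miR-451a: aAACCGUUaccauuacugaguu
The genes of these miRNAs lie on the plus strand of chromosome 11, with miR-144-5p at chr11:78073010-78073032, miR-144-3p at chr11:78073047-78073066 and miR-451a at chr11:78073186-78073207. The 3 seeds differ from each other.

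Expression was deposited as FPKM, fragments per kilobase of transcript and scaled to each sample's mapped fragments, which is a level per transcript length. The steps between low values implied 15.5 to 30.3 M fragments per sample (23.7 to 27.6 in the control group, 17.9 to 27.2 in the miR-144 group and 15.5 to 30.3 in the miR-451a group). The depth is approximate, because only 42.9% to 55.8% of low values in a sample lay on a step, where 10% would by chance. Of 8 macrophage markers, limma called 7 higher in the miR-144 group and 6 in the miR-451a group, and 1, Cd68, lower in both. Of 5 Kupffer cell markers Clec4f was listed at 0 in every sample, but the other 4 were called higher with either miRNA, and the list summed to 3.3 to 3.77 FPKM in control samples, 17.1 to 50.1 with miR-144 and 16.0 to 47.3 with miR-451a, most of it Cd5l. The hepatocyte genes Alb, Apoa1 and Ttr were listed at 0 throughout. The summed FPKM of the fibroblast and stellate cell list was 106 to 131 in control samples, 141 to 209 with miR-144 (3 of 5 genes called higher) and 180 to 231 with miR-451a (5 of 5). The part of these other cells in the results was not tested, and in bulk RNA fewer cells of a type and less RNA per cell cannot be told apart.

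In control TAMs the receptor for UDP stood at the top of the set and the enzyme that makes adenosine at the bottom. P2ry6 had 49.8 ± 1.52 FPKM (SD, n = 5), followed by P2rx4 at 33.3 ± 2.14, Entpd1 at 22.5 ± 1.72 and P2rx7 at 12.5 ± 0.802 FPKM, and no sample of any of these genes overlapped the next in the order. P2ry14 at 2.08 ± 0.703 FPKM and Adora2b at 1.30 ± 0.239 FPKM overlapped each other. Below them P2ry12 (0.670 ± 0.0758 FPKM) overlapped P2ry13 (0.477 ± 0.113 FPKM), which in turn overlapped Adora2a (0.229 ± 0.0890 FPKM). Nt5e stayed at or under the value of 3 fragments in each of the 15 samples, with a highest level of 0.0324 FPKM. TAMs of both miRNA groups kept P2ry6 first, but Entpd1 and P2rx4 now overlapped, and P2ry13 stood above P2ry14 in every sample. P2ry12 did so with miR-144, whereas with miR-451a these genes overlapped. Adora2b, higher than P2ry12 in every control sample, was lower than P2ry12 in each sample of both miRNA groups.

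Against control, more members were higher than lower in TAMs of either miRNA group. Of the 10 members, 6 were called higher with miR-144 and 1 was called lower, at an adjusted p under 0.05 from limma on log2(FPKM + 1) over 29540 genes. Among all genes tested 23.1% were called higher and 9.65% lower in that comparison. With miR-451a the calls were also 6 higher and 1 lower, where 24.5% of all genes were higher and 9.69% lower. The sixth higher gene differed between the comparisons, since it was Adora2a with miR-144 but Nt5e with miR-451a. The Nt5e call rests on values under 3 fragments and is not read as a change. Over the members the median log2 fold change was 0.34 (miR-144) and 0.31 (miR-451a), where all genes had medians of 0.0136 and 0.0154. P2ry6, P2ry12, P2ry13, P2rx7 and Entpd1 were called higher, and Adora2b lower, in both comparisons, which share the control samples. Other scalings shifted the split, to 4 higher and 2 lower under median centring and 4 and 1 under quantile normalization with miR-144, and to 6 and 2, and 5 and 1, with miR-451a.

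The share of expressed genes that moved is larger than that of all genes. Among the 11419 genes averaging 1 FPKM or more, 47.1% were higher and 20.1% lower with miR-144, and 48.1% were higher and 20.3% lower with miR-451a. Of the 7 members above that mean, 5 were called higher and 0 lower in each comparison. The filter shaped this split, since P2ry12 and P2ry13 reached that mean only through the miRNA groups. Adora2b, at 1.30 FPKM in control TAMs, was left out through its low values in the miRNA groups. The split is therefore not set against the shares of expressed genes. Counted by overlap, 6 members had no sample of the miR-144 group within the control range, as did 26.9% of all genes. For miR-451a the count was 7, one of them Nt5e, where 27.9% of all genes did not overlap. Median log2 fold changes over the 11419 genes were 0.13 and 0.14, a shift against which the member values below can be read.

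**Figure D1:**
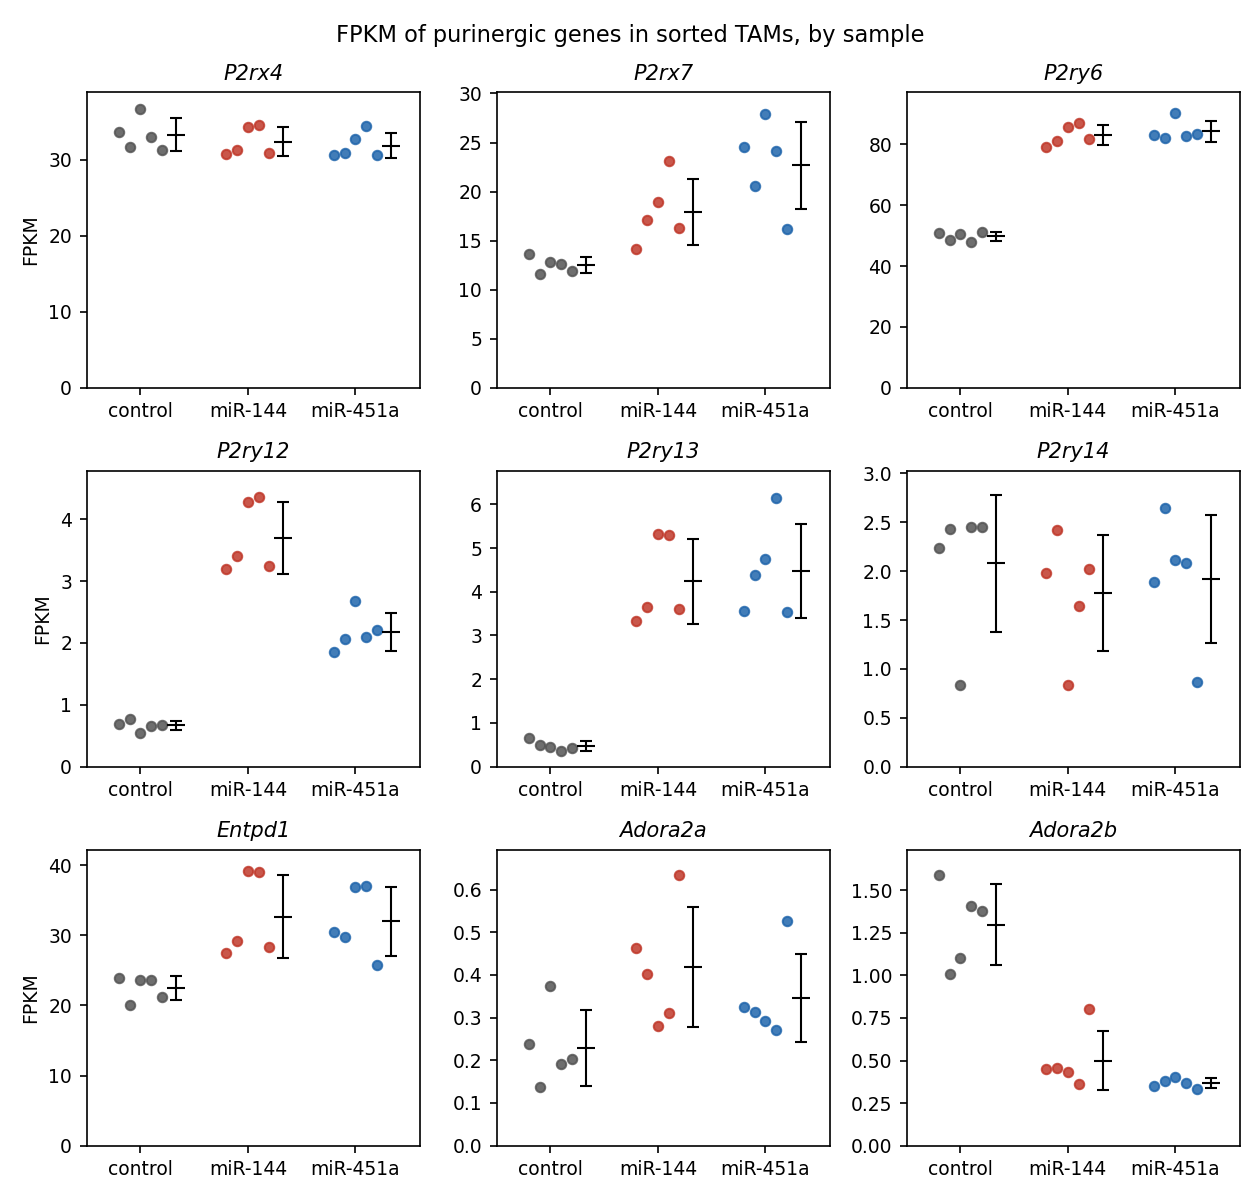
FPKM of 9 members in each of the 15 TAM samples (points, replicates 1 to 5 from left to right), with the mean and SD of each group of 5 in black; each vertical axis starts at 0. P2ry6, P2ry12, P2ry13, P2rx7 and Entpd1 lie above the control range in all samples of both miRNA groups, Adora2b lies below it, and P2rx4 and P2ry14 overlap in the 3 groups; Nt5e is left out, as it is under 3 fragments.

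P2ry12 and P2ry13, both receptors for ADP that couple to inhibitory G proteins, had the largest rises of the set. P2ry12 (ENSMUSG00000036353) is known from platelets, where it is the target of clopidogrel, and from microglia, whose processes it steers towards ATP. It lies on the minus strand of chromosome 3, from 59216272 to 59262871 (GENCODE M21, GRCm38). Its FPKM in control replicates 1 to 5 was 0.693, 0.763, 0.552, 0.665 and 0.676. In the miR-144 group it was 3.20, 3.40, 4.28, 4.36 and 3.24, and in the miR-451a group 1.85, 2.06, 2.68, 2.10 and 2.21. The 3 groups did not overlap, with control lowest, miR-451a between and miR-144 highest. The mean of the miR-144 group, 3.70 ± 0.577 FPKM, was 5.52 times that of control, and the mean of the miR-451a group, 2.18 ± 0.311 FPKM, was 3.26 times that of control. On the log2(FPKM + 1) scale, which understates changes of genes near 1 FPKM, P2ry12 differed from control by 1.48 ± 0.08 (SE, adjusted p = 3.24e-09 from limma) and 0.93 ± 0.08 (adjusted p = 5.15e-07).

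P2ry13 (ENSMUSG00000036362), the nearest relative of P2ry12 in position, spans 59207892 to 59210882 on the same strand of chromosome 3, 5390 bp from it. Control replicates 1 to 5 had 0.657, 0.496, 0.439, 0.354 and 0.438 FPKM. TAMs of the miR-144 group had 3.33, 3.66, 5.31, 5.29 and 3.60 FPKM, and those of the miR-451a group 3.57, 4.38, 4.75, 6.15 and 3.53 FPKM. Every sample of both miRNA groups was thus above every control sample, while the miRNA groups lay across the same range. The ratios to the control mean were 8.89 and 9.39, the largest of the members above 3 fragments. The log2 fold changes of P2ry13 were 1.81 ± 0.14 (SE, adjusted p = 8.39e-08 from limma) with miR-144 and 1.87 ± 0.14 (adjusted p = 5.46e-08) with miR-451a.

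P2ry14, a receptor for UDP-glucose at the same locus, did not follow them. The gene (ENSMUSG00000036381) spans 59113855 to 59153618 on the minus strand, 54274 bp from P2ry13. It had 2.24, 2.43, 0.832, 2.45 and 2.45 FPKM in control TAMs, 1.98, 2.42, 0.839, 1.64 and 2.02 with miR-144, and 1.89, 2.65, 2.11, 2.08 and 0.871 with miR-451a. In each group 1 sample stood far below the other 4, and the groups overlapped. The fold changes were -0.14 (95% interval -0.61 to 0.33, adjusted p = 0.705 from limma) and -0.07 (-0.55 to 0.40, adjusted p = 0.866), so a change within these bounds was not excluded. Leaving out miR-144 replicate 3 moved the first to 0.001, and leaving out miR-451a replicate 5 moved the second to 0.08, so the sign of both rests on a single sample.

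The neighborhood of these 3 receptors carries another gene that was called. P2ry12, P2ry13 and P2ry14 lie on the minus strand inside Med12l, a subunit gene of the Mediator complex read from the plus strand. Med12l was at 0.0435 FPKM in control TAMs, 0.166 with miR-144 and 0.133 with miR-451a, far below P2ry12 and P2ry13 in the miRNA groups. Its exons share 9 bp with those of P2ry12 and 0 bp with those of P2ry13 and P2ry14. Whether the authors counted by strand is not given in the sources used here, so reads of the strands cannot be told apart where they overlap.

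The P2ry12 promoter is shown because the 3 groups did not overlap for this receptor, although limma did not call the miRNA groups apart. The 250 bases before the RefSeq start of each member gene were searched on both strands for AGGAAGT, a core of the binding motif of PU.1, the lineage factor of macrophages, and for the core of the interferon-stimulated response element (GAAA, any 2 bases, GAAA). RefSeq promoters were available for 8 of the 10 members, all but P2ry6 and Adora2a. The PU.1 core was found in that of P2ry12, and its letters are in capitals in this stretch of chr3:59263001-59263067 (GRCm38.p6, minus strand), where they begin 52 bases before the start.
P2ry12 promoter: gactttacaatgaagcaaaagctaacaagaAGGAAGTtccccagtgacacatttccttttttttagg
Counted by gene, 8.8% of 27025 genes have a promoter window of this length with that core, and 3.46% have one with the interferon core, which was in 0 of the 8 member genes. A match of letters does not show binding.

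P2ry6 had the smallest standard error of the members that were called above the level of 3 fragments. It encodes the receptor for UDP, coupled to Gq, which drives phagocytosis in microglia. The gene (ENSMUSG00000048779) lies on the minus strand of chromosome 7 from 100937630 to 100974649. Values were 51.0, 48.7, 50.5, 47.8 and 51.2 FPKM in control TAMs. The miR-144 group had 79.3, 81.2, 85.6, 87.1 and 81.9 FPKM, and the miR-451a group 83.2, 82.1, 90.5, 82.9 and 83.3. Every sample of the miRNA groups lay above every control sample, and the miRNA groups overlapped. The group means were 1.67 and 1.69 times that of control, and the log2 fold changes 0.73 ± 0.03 (SE, adjusted p = 3.45e-10 from limma) and 0.75 ± 0.03 (adjusted p = 2.30e-10). Over all alternative fits the fold changes of P2ry6 stayed between 0.59 and 0.84.

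Of the ATP-gated channels P2rx7 rose and P2rx4 did not pass the test, although the genes are neighbors. P2rx7 (ENSMUSG00000029468) spans 122643911 to 122691432 and P2rx4 (ENSMUSG00000029470) spans 122707544 to 122729738 on the plus strand of chromosome 5, 16112 bp apart. P2rx7 had 13.6, 11.6, 12.8, 12.6 and 11.9 FPKM in control TAMs, 14.1, 17.1, 18.9, 23.1 and 16.3 with miR-144, and 24.5, 20.6, 27.9, 24.1 and 16.2 with miR-451a. No miRNA sample was within the control range, but the lowest of the miR-144 group, 14.1, was close to the highest control, 13.6. The means rose 1.43 times, to 17.9 ± 3.37 FPKM, and 1.81 times, to 22.7 ± 4.44 FPKM. The log2 fold change with miR-451a was 0.79 ± 0.13 (SE, adjusted p = 0.000274 from limma). With miR-144 it was 0.47 ± 0.13 (adjusted p = 0.0140 from limma), and this call was lost under median centring (0.34, adjusted p = 0.0722) and quantile normalization (0.39, adjusted p = 0.0546), while the adjusted p over its alternatives ranged from 0.00446 to 0.0722.

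P2rx4, the most ATP-sensitive channel of the pair, lay between 31.3 and 36.7 FPKM in control TAMs, 30.7 and 34.6 with miR-144, and 30.6 and 34.4 with miR-451a. The 3 groups overlapped nearly throughout. Its log2 fold changes were -0.04 (95% interval -0.14 to 0.07, adjusted p = 0.627 from limma) and -0.06 (-0.17 to 0.04, adjusted p = 0.402). The sign depended on the scaling. Median centring gave -0.17 (adjusted p = 0.0281 from limma) and -0.20 (adjusted p = 0.00961), both past the threshold, whereas rescaling to TPM gave 0.031 and 0.019. The adjusted p over the alternatives ranged from 0.0281 to 1.0 with miR-144 and from 0.00961 to 0.831 with miR-451a. Of the 50-base stretches of their longest transcripts, 2.16% of P2rx4 and 1.43% of P2rx7 also occur in transcripts of other genes, and how reads from such stretches were assigned was not tested.

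The enzymes of the surface cascade were far apart in level. Entpd1, which cuts ATP and ADP to AMP, was abundant in all samples and rose with both miRNAs. The gene (ENSMUSG00000048120) lies on the plus strand of chromosome 19 from 40612366 to 40741602. It had 23.9, 20.1, 23.6, 23.6 and 21.2 FPKM in control TAMs, 27.5, 29.2, 39.2, 39.0 and 28.3 with miR-144, and 30.5, 29.7, 36.9, 37.1 and 25.7 with miR-451a. The lowest miRNA samples still exceeded the highest control sample, by a small margin in miR-451a replicate 5. The means rose 1.45 and 1.42 times, with log2 fold changes of 0.51 ± 0.12 (SE, adjusted p = 0.00417 from limma) and 0.48 ± 0.12 (adjusted p = 0.00551). Over all alternatives the adjusted p of Entpd1 reached at most 0.0296 with miR-144 and 0.0458 with miR-451a.

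Nt5e, which turns AMP into adenosine, was at background. The gene (ENSMUSG00000032420) spans 88327197 to 88372092 on the plus strand of chromosome 9. It was listed at 0 in 3 of the 15 samples, and the remaining values did not exceed the level of 3 fragments, which corresponds to 0.0248 to 0.0483 FPKM depending on the sample. No fold change is given. Its control values were at most 0.00983 FPKM, those with miR-144 at most 0.0324 and those with miR-451a 0.0163 to 0.0261 FPKM.

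The adenosine receptors, both of which raise cyclic AMP through Gs, did not move together. Adora2b, the receptor of lower affinity, fell with both miRNAs. Adora2b (ENSMUSG00000018500) is on the plus strand of chromosome 11 from 62248984 to 62266453. Its FPKM was 1.59, 1.01, 1.10, 1.41 and 1.38 in control TAMs, 0.450, 0.454, 0.430, 0.361 and 0.805 with miR-144, and 0.348, 0.380, 0.405, 0.366 and 0.331 with miR-451a. All miRNA samples were below all control samples, and miR-144 replicate 5 came closest to them. The means were 0.384 and 0.281 times that of control. Its log2 fold changes were -0.62 ± 0.08 (SE, adjusted p = 2.45e-05 from limma) and -0.75 ± 0.08 (adjusted p = 3.44e-06), on a scale that understates them.

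Adora2a, the high-affinity receptor, was scarce, and its call was unstable. The gene (ENSMUSG00000020178) is on the plus strand of chromosome 10 from 75316877 to 75334784. It had 0.238, 0.138, 0.375, 0.192 and 0.204 FPKM in control TAMs, 0.464, 0.402, 0.281, 0.311 and 0.635 with miR-144, and 0.326, 0.313, 0.291, 0.271 and 0.526 with miR-451a. Control replicate 3 lay inside the range of both miRNA groups. The ratios of means were 1.82 and 1.50. With miR-144 the log2 fold change was 0.20 ± 0.07 (SE, adjusted p = 0.0415 from limma), and with miR-451a it was 0.13 ± 0.07 (adjusted p = 0.204). The miR-144 call was lost in 10 of 15 fits that left out a single sample, namely control replicates 1, 2, 4 and 5, miR-144 replicates 1, 2 and 5 and miR-451a replicates 1, 2 and 3, with an adjusted p of up to 0.104. It was also lost under median centring, quantile normalization and a fit of these groups alone, and over all alternatives the adjusted p ranged from 0.0174 to 0.261.

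**Figure D2:**
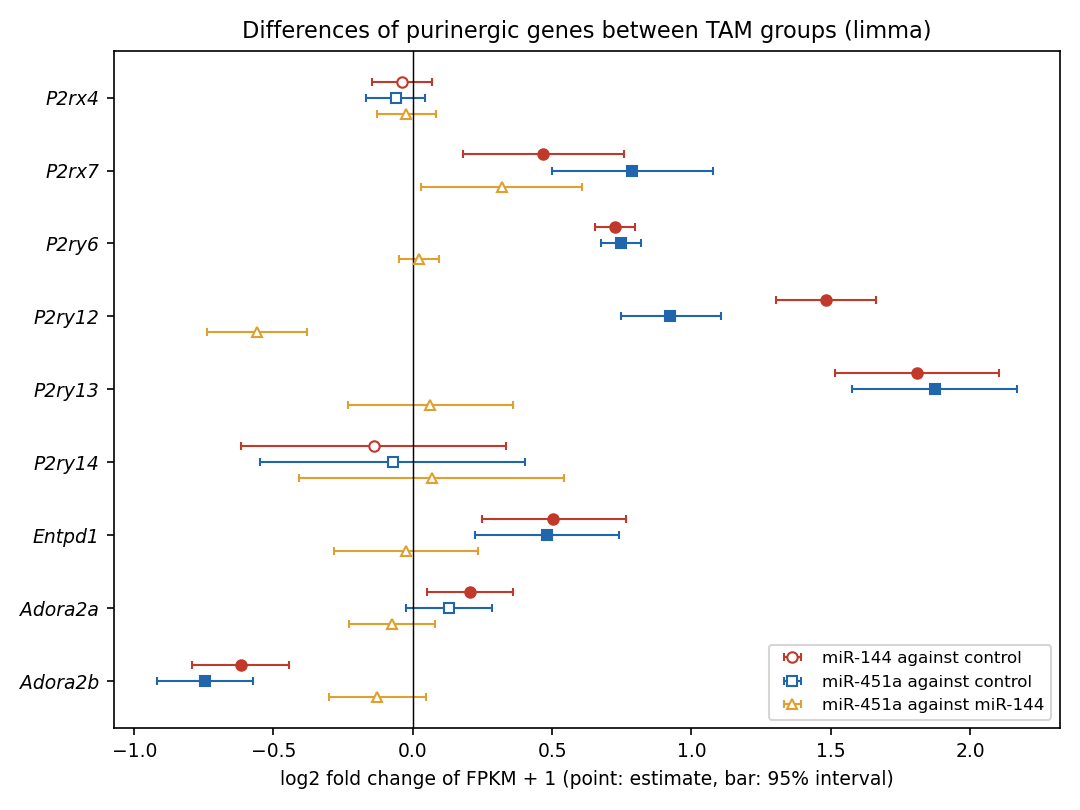
Log2 fold changes of FPKM + 1 (horizontal axis) for 9 members in 3 comparisons, with the 95% interval from limma as bars; filled symbols passed an adjusted p of 0.05. P2ry13 and P2ry12 lie farthest to the right, Adora2b lies to the left in both comparisons with control, and in the direct comparison of the miRNA groups P2ry12 is the member with the largest difference, -0.56.

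The miRNA groups were then compared directly. Across all genes limma called 0.0% higher and 0.0% lower, with a smallest adjusted p of 0.167 and 1459 genes at an unadjusted p under 0.05, and so none of the 10 members passed. P2ry12 had the largest difference of the set. It was lower with miR-451a than with miR-144 by a log2 fold change of -0.56 (95% interval -0.74 to -0.38), and its mean was 0.590 times as high. The adjusted p was 0.175 from limma (unadjusted p = 1.18e-05), with a range from 0.0699 to 0.79 over the alternatives. P2ry12 was the sole member whose miRNA groups did not overlap, as held for 0.657% of all genes. P2rx7 was higher with miR-451a by 0.32 (0.03 to 0.61, adjusted p = 0.909 from limma, unadjusted p = 0.0326), and its groups overlapped.

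For the other members the interval limits how far the miRNA groups could be apart on the log2(FPKM + 1) scale. The difference of P2ry6 was 0.02 (95% interval -0.05 to 0.09) and that of P2rx4 was -0.02 (-0.13 to 0.08). For Adora2b it was -0.13 (-0.30 to 0.05) and for Adora2a -0.07 (-0.23 to 0.08). Both adenosine receptors lay under 1 FPKM in the miRNA groups, where this scale understates differences and narrows the intervals. The mean of Adora2b was 0.732 times as high with miR-451a, and its alternatives reached -0.325. Wider intervals were left for Entpd1, at -0.02 (-0.28 to 0.24), for P2ry13, at 0.06 (-0.23 to 0.36), and for P2ry14, at 0.07 (-0.41 to 0.54).

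The rest of the purine pathway moved in both directions. Of 39 other genes of the pathway, 36 were above 0 in at least 1 sample. With miR-144 11 of the 36 were called higher and 7 lower, and with miR-451a 12 were higher and 8 lower, beside the 23.1% higher and 9.65% lower, and 24.5% and 9.69%, of all genes. The balance turned with the scaling, since median centring gave 9 higher and 12 lower with miR-144 and 11 and 13 with miR-451a, and quantile normalization gave 9 and 14, and 11 and 11. Their median log2 fold changes, -0.001 and 0.04, were near those of all genes. P2ry4, Adora1 and Entpd8 were listed at 0 throughout. Pnp, a purine enzyme used by most cells, was listed at 0 in 14 of 15 samples, which can be a failed estimate, and is not read further.

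Of 3 other P2Y receptor genes 2 were tested, of which 1 was called lower with miR-144 and 2 with miR-451a, beside 9.65% and 9.69% of all genes. P2ry1, a Gq-coupled receptor for ADP, fell from 8.09 ± 0.597 FPKM in control TAMs to 2.96 ± 0.495 in the miR-144 group and 3.01 ± 0.452 in the miR-451a group (-1.21 and -1.19 on the log2 scale, limma adjusted p = 8.30e-08 and 9.33e-08). As FPKM, P2ry1 was above P2ry12 and P2ry13 in every control sample, whereas its range with miR-144, 2.44 to 3.58, overlapped those of both. P2ry2, a receptor for ATP and UTP that lies 21919 bp from P2ry6, had 3.70 ± 1.67, 2.36 ± 0.642 and 1.44 ± 0.370 FPKM, and it fell with miR-451a (-0.90, adjusted p = 0.00165 from limma) while its change with miR-144 did not pass (-0.45, adjusted p = 0.0958). The latter moved to -0.255 without control replicate 4, and passed without miR-144 replicate 5 (limma adjusted p = 0.0431), with the filter at a mean of 1 FPKM and under median centring and quantile normalization, with an adjusted p of 0.0271 to 0.203 over the alternatives. Among 5 other P2X genes, all under 1 FPKM on average, P2rx5 was called lower in both comparisons.

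The list of other ectonucleotidases also holds relatives that act inside the cell. Of 10 other ectonucleotidase genes tested, 3 were called higher and 2 lower with miR-144, and 4 higher and 2 lower with miR-451a, beside 23.1% and 9.65%, and 24.5% and 9.69%, of all genes, so that nothing particular to these enzymes is read from the counts. Entpd4, an enzyme of the Golgi and lysosome, had 1.98 ± 0.0787 FPKM in control TAMs, 2.83 ± 0.227 in the miR-144 group and 2.89 ± 0.106 in the miR-451a group, and it was called higher in both, as was its relative Entpd6. Cd38, which consumes NAD and feeds adenosine production, had 0.495 ± 0.105, 1.44 ± 0.798 and 1.71 ± 0.802 FPKM (0.65 and 0.81 on the log2 scale, limma adjusted p = 0.0348 and 0.00972). Its call with miR-144 was lost when any 1 of the 5 control samples, or miR-144 replicate 3 or 4, was left out, and under median centring and quantile normalization, with an adjusted p of 0.00307 to 0.0931 over the alternatives. Enpp3 had 0.242 ± 0.0712 FPKM in control TAMs and at most 0.0519 FPKM with miR-144 and 0.0694 FPKM with miR-451a.

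Genes of nucleoside handling gave some of the largest values of the pathway. Of 7 such genes, 1 was called higher and 2 lower in the miR-144 group, and 2 and 2 in the miR-451a group. The shares of all genes were 23.1% and 9.65%, and 24.5% and 9.69%. Adk was called higher with miR-451a alone (0.137, adjusted p = 0.0347 from limma). This call was lost under median centring, in a fit of these groups alone and in several fits that left out 1 sample, and its sign turned under quantile normalization. Slc28a2, a concentrative transporter that takes up adenosine, rose from 1.56 ± 0.131 FPKM to 4.55 ± 0.400 and 4.94 ± 0.675 (1.12 and 1.21, adjusted p = 1.71e-08 and 6.78e-09 from limma). Slc29a3, a nucleoside transporter of the lysosome, fell from 55.0 ± 2.81 FPKM to 27.1 ± 2.56 and 27.5 ± 1.38 (-0.997 and -0.975, adjusted p = 4.46e-09 and 5.50e-09 from limma). Ada, which deaminates adenosine to inosine, fell from 15.2 ± 1.32 to 10.5 ± 0.571 and 10.6 ± 0.869 FPKM. The plasma membrane carriers Slc29a1 and Slc29a2 did not pass the test, although Slc29a1 passed as lower in both comparisons under median centring, quantile normalization and the replicate block.

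Release channels and G proteins completed the pathway. Of 4 genes of nucleotide release, 2 were called higher and 0 lower in both comparisons, beside the 23.1% and 24.5% of all genes called higher. Panx1, a channel through which cells release ATP, had 1.18 ± 0.0590, 1.86 ± 0.212 and 1.91 ± 0.0908 FPKM and was called higher in both comparisons, as was the connexin Gja1. Slc17a9, which loads ATP into vesicles, had log2 fold changes of -0.072 and -0.058, and Lrrc8a, a subunit of volume-regulated anion channels, had 0.217 and 0.091, and neither passed the test. Of 7 genes of receptor coupling, 4 were called higher and 1 lower in the miR-144 group, and 3 and 1 in the miR-451a group. The shares of all genes were 23.1% and 9.65%, and 24.5% and 9.69%. Gnas was called higher with miR-144 alone (0.123, adjusted p = 0.0251 from limma). This call was lost under quantile normalization and without control replicate 1 or 3 or miR-144 replicate 5, and its sign turned under median centring. Gnai2, a subunit of the inhibitory G protein that P2Y12 and P2Y13 use, rose from 105 ± 4.32 to 155 ± 4.28 and 156 ± 5.12 FPKM (0.57 in both, adjusted p = 3.78e-09 and 3.33e-09 from limma). Kcnk13 encodes THIK-1, a potassium channel that acts with P2Y12 in microglia, and rose from 9.39 ± 0.71 to 15.3 ± 0.626 and 14.7 ± 1.07 FPKM. Gna13 fell from 59.0 ± 0.946 to 39.9 ± 1.09 and 39.2 ± 1.04 FPKM, and Gnaq, the partner of P2Y6, had log2 fold changes of -0.004 and -0.016 that did not pass the test but did under median centring (-0.132 and -0.155), and turned to 0.066 and 0.065 with TPM. The third adenosine receptor, Adora3, was low but rose from 0.155 ± 0.0389 to 0.590 ± 0.0882 and 0.577 ± 0.153 FPKM (adjusted p = 2.47e-05 and 3.22e-05 from limma).

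**Figure D3:**
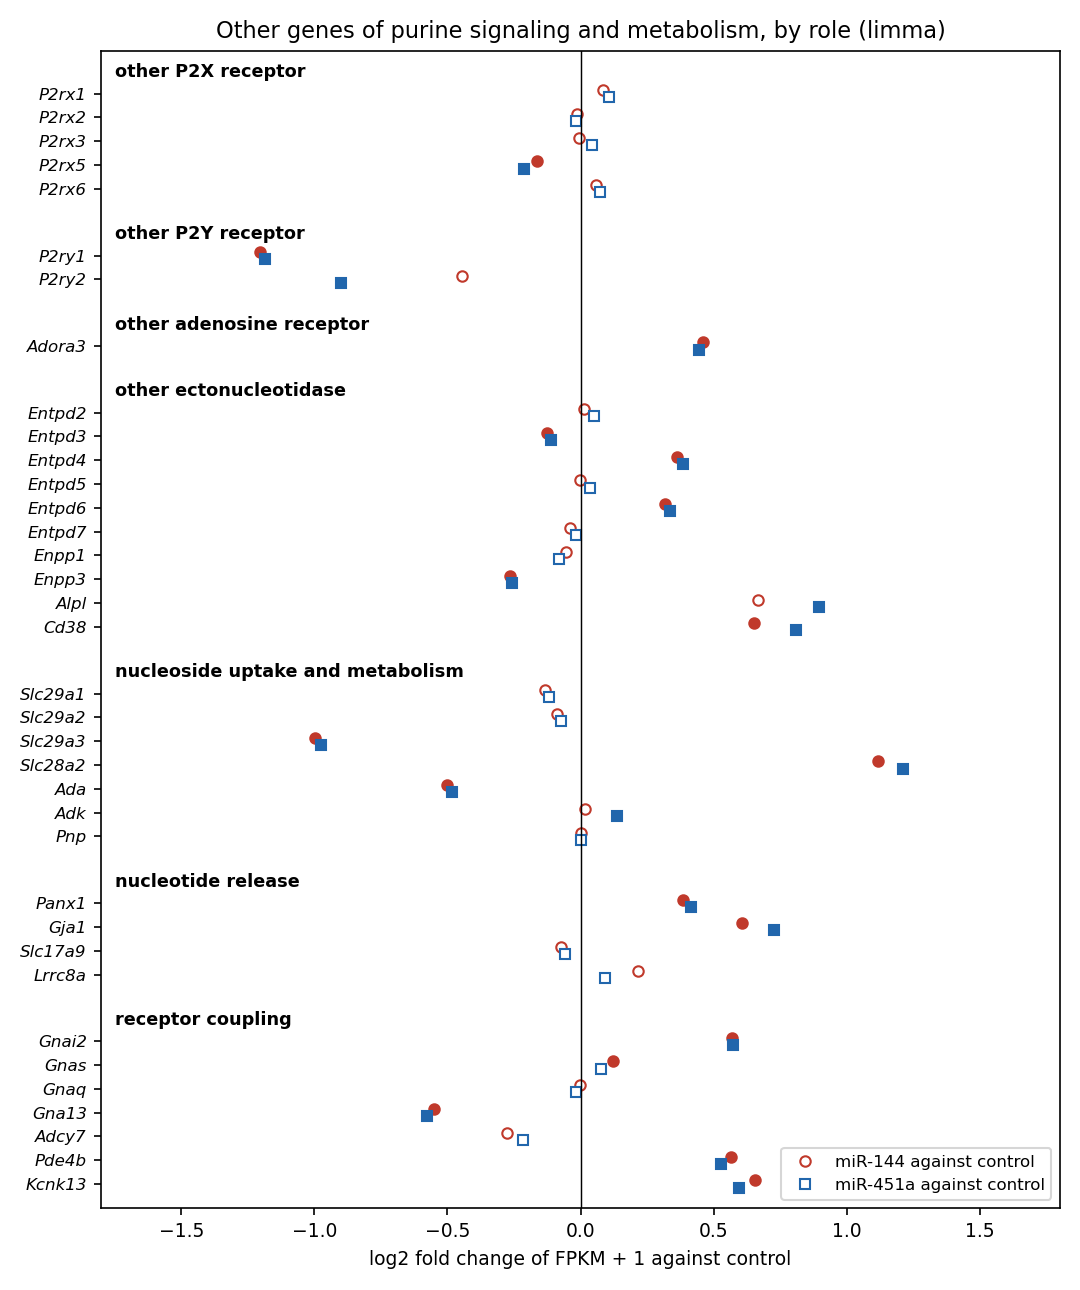
Log2 fold changes of FPKM + 1 against control (horizontal axis) for the 36 other pathway genes above 0 FPKM, grouped by role; circles are miR-144, squares are miR-451a, and filled symbols passed an adjusted p of 0.05 from limma. P2ry1 and Slc29a3 lie farthest to the left and Slc28a2 farthest to the right, and ectonucleotidases, nucleoside handling and receptor coupling hold calls in both directions.

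P2ry12 and P2ry13 are also used as microglia genes, and P2ry12 and P2ry1 are expressed by platelets, so the markers of those cells were read beside them. Of 5 microglia markers 3 passed as higher in the miR-144 group and 4 in the miR-451a group, while Sall1, the factor that defines microglia, was listed at 0 in all samples. Their summed FPKM was 6.51 to 8.46 in control TAMs, 87.2 to 120 with miR-144 and 94.9 to 159 with miR-451a. Most of that sum came from Fcrls (5.42, 93.5 and 113 FPKM). Gpr34 (0.135, 6.18 and 8.55 FPKM) and Siglech (0.0134, 0.203 and 0.157 FPKM) were also called higher in both comparisons, and Tmem119 (2.10, 2.74 and 3.51 FPKM) in the miR-451a group. The 5 platelet and megakaryocyte markers summed to 9.94 to 17.7 FPKM in control TAMs, 5.62 to 12.7 with miR-144 and 4.63 to 14.5 with miR-451a. Pf4 made up most of it and did not pass the test, while 2 markers were called higher with each miRNA. The 5 monocyte markers summed to 4014 to 5782 FPKM in control TAMs, nearly all of it Chil3, against 7.42 to 12.4 and 6.89 to 11.6 FPKM in the miRNA groups. Chil3 was the 1 monocyte marker called lower, whereas the miR-144 group had 2 and the miR-451a group 4 called higher, among them Ccr2 (6.51 and 8.62 times the control mean) and Plac8 (2.77 and 2.35 times) in both. The 5 neutrophil markers summed to 65.0 to 79.2, 46.2 to 52.2 and 44.1 to 53.2 FPKM in the 3 groups, nearly all of it Csf3r, with 2 called lower in each comparison. Endothelial markers summed to 3.7 to 4.3, 4.68 to 5.05 and 4.67 to 5.93 FPKM, most of it Kdr, which was called higher in both comparisons, while Pecam1 was called lower with miR-144. Eosinophil markers summed to 2.59 to 3.01, 0.839 to 0.99 and 0.615 to 1.08 FPKM, with 2 called lower in each comparison. B cell markers summed to 0.138 to 0.375, 1.11 to 1.45 and 1.17 to 1.73 FPKM, with Cd79b called higher in both, and NK cell markers to 0.192 to 0.416, 0.0887 to 0.168 and 0.0323 to 0.147 FPKM, with Klrb1c called lower in both. Mast cell markers summed to 0.0537 to 0.134, 0.144 to 0.377 and 0.126 to 0.295 FPKM (1 called higher in each comparison), and dendritic cell markers to 0.281 to 0.42, 0.473 to 0.645 and 0.401 to 0.747 FPKM (1 called higher with miR-451a). No T cell marker (sums up to 0.159 FPKM) and no hepatocyte and hepatoma marker (up to 0.253 FPKM) was called. The part of these lists in the member values was not tested.

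Samples of a group differed together in several members. In the miR-144 group replicates 3 and 4 were the pair of highest samples for 6 of 9 members, namely P2rx4, P2rx7, P2ry6, P2ry12, P2ry13 and Entpd1, and the pair of lowest samples for the other 3, P2ry14, Adora2a and Adora2b. Their P2ry13 level was 1.25 times the group mean in both, and their Entpd1 level 1.20 and 1.19 times. In the miR-451a group replicates 3 and 4 were the pair of highest samples for 3 of the 9 members, P2rx4, P2ry13 and Entpd1, and replicate 5 had the lowest P2rx7 and Entpd1. Among control samples the most frequent pair of highest samples, replicates 1 and 3, was so for 4 of the 9. The implied depth of miR-144 replicates 3 and 4, 22.5 and 22.4 M fragments, was inside the range of their group. Leaving out either of them kept the calls of P2ry6, P2ry12, P2ry13, P2rx7 and Entpd1 with miR-144. The labels do not explain this split.

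**Figure D4:**
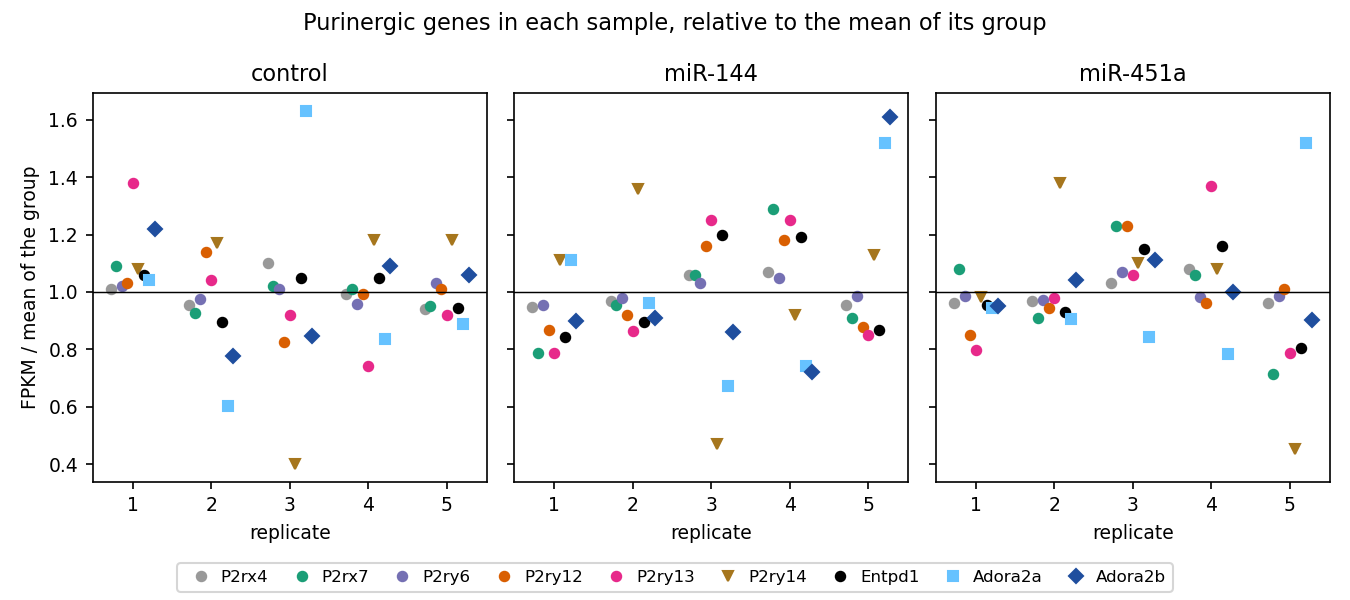
FPKM of 9 members divided by the mean of the group (vertical axis, a ratio on an axis that does not start at 0) in replicates 1 to 5 of each group (horizontal axis). In the miR-144 group replicates 3 and 4 lie above 1 for 6 genes (circles), for which the other 3 replicates lie below it, and below 1 for P2ry14 (triangles), Adora2a (squares) and Adora2b (diamonds).

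Genes with patterns most like those of the members were listed for the 7 members averaging 1 FPKM or more, by Pearson's r of log2(FPKM + 1) over the 15 samples among 11412 other genes. These r values are a description, and the samples they run over fall into the same 3 groups for every gene. For P2ry6 the leading genes were Gna12 (r = 0.998), Ptger4 (0.997) and Nfatc2 (0.996), and for P2ry13 they were Dock1 (0.996), Scarb2 (0.995) and Cd163 (0.994). Cd163, a scavenger receptor of macrophages, had 0.958 FPKM in control TAMs, 5.69 with miR-144 and 6.10 with miR-451a. P2ry12 was led by Rasgef1b (0.975), Ip6k2 (0.952) and Arl4c (0.948), each highest in the miR-144 group. Entpd1 was most like Osbpl11 (0.972), Gab1 (0.970) and Tlr1 (0.969), and P2rx7 most like Gm19680 (0.951), Pyroxd2 (0.941) and Abcg3 (0.934). P2rx4, with Sipa1l2 at 0.862, and P2ry14, with Rps2-ps10 at 0.846, had no gene as close.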

How the data were processed

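TAM RNA was extracted with Trizol and sequenced on an Illumina instrument. The submitters' processing notes name FastQC 0.11.2, STAR and StringTie, and the genome build, annotation and use of strand are not given in the sources used here. The values the authors deposited are FPKM, scaled for the length of a transcript and for the mapped fragments of its sample, so no count test was used. The table holds 55335 genes, of which 29540 were above 0 FPKM in at least 1 sample. Group and replicate number were read from the labels.

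Groups were compared with limma 3.58.1 (R 4.3.3) on log2(FPKM + 1), fitting the 3 groups together with a trend of variance on mean and two-sided Benjamini-Hochberg adjusted p over 29540 genes, threshold 0.05. Files and tables were handled with Python 3.11.15, pandas 2.3.3 and numpy 2.4.6, and plots with matplotlib 3.10.9. The step was tested on simulated data for miR-144 against control over 29540 genes: it called 48 of 50 genes given a log2 change of 1, 40 of 50 given 0.5 and 21 of 50 given 0.25, with 8 false calls. All changed genes averaged 1 FPKM or more and were raised, the noise was normal, and far fewer genes were changed than were called in the data. The test therefore does not cover members under 1 FPKM or give the rate of false calls in these data. Depth was estimated from FPKM times length of genes longer than 1000 bp, and a value of 3 fragments on the longest transcript was taken as the floor, covering counting error only. Replicates of each group differed beyond sampling noise in every pair (lowest mean chi-square per gene 8.27).

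Coordinates are 1-based from GENCODE M21 (GRCm38), where 99.67% of identifiers occur and 86.64% have the same symbol. Sequences are from RefSeq GRCm38.p6. Named genes were all members, 39 other pathway genes in fixed lists by role, genes within 100 kb of a member, the 3 genes with the highest r to each member above 1 FPKM, and 15 lists of cell type markers, given by their counts and sums (1 marker is not reported here and is left out of them). The members and lists were chosen with earlier results of these data known. Alternatives were a pseudocount of 0.1, a mean of at least 1 or 5 FPKM, median centring (a factor per sample, so that 0 stays 0), quantile normalization, TPM, a replicate block, no trend, fits of 2 groups and each sample left out.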

Additional observations from a re-analysis of the deposited data

Results flagged for a closer look

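In 27 groups of 5 samples (9 members in 3 groups), 4 had a sample whose gap to its nearest neighbor exceeded Dixon's 95% value of 0.71 of the range, and chance flags about 1 in 20 groups. Control replicate 3 had 0.832 FPKM of P2ry14, where the highest of that group had 2.45. The low P2ry14 samples of the other groups, miR-144 replicate 3 and miR-451a replicate 5, were at 0.839 and 0.871 FPKM and did not exceed that value of the range. MiR-451a replicate 3 had 90.5 FPKM of P2ry6 in a group that began at 82.1. Replicate 5 of the miR-451a group had 0.526 FPKM of Adora2a, where the lowest had 0.271. Replicate 5 of the miR-144 group had 0.805 FPKM of Adora2b, where the lowest had 0.361, and this sample also had the highest Adora2a of its group, 0.635 FPKM.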

How the results depend on the processing

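Of 627 alternative fold changes of 9 members, 597 kept their sign and side of the threshold, 15 lost a call, 2 gained one and 13 changed sign. Many of these fits could not move the fold change, such as those that left out a sample of the group not compared. The direct comparison of the miRNA groups, in which no member was called, is also among them. The 597 is therefore not a measure of robustness. Calls of P2ry6, P2ry12, P2ry13, Entpd1 and Adora2b against control held under all alternatives in which these genes were tested. With a mean of at least 5 FPKM, which left 4 members and 10 other pathway genes to test, 3 members were called against control with each miRNA, and 6 and 5 other pathway genes, because fewer genes were tested. Rescaling to TPM turned P2rx4 to 0.031 and 0.019. Leaving out 1 sample each time gave miR-451a against miR-144 ranges of -0.05 to 0.001 for P2rx4, -0.002 to 0.04 for P2ry6, -0.039 to 0.135 for P2ry13, -0.073 to 0.221 for P2ry14 and -0.079 to 0.049 for Entpd1, and ranges against control of -0.317 to 0.001 and -0.249 to 0.081 for P2ry14. Among other pathway genes, Adk turned to -0.068 and Gnas to -0.007 and -0.064 under median centring, and Adk to -0.132 and -0.023 under quantile normalization, while Adk with miR-144 ranged from -0.001 to 0.04 leaving out 1 sample. Gnaq turned to 0.066 and 0.065 with TPM, and ranged from -0.03 to 0.017 with miR-144 leaving out 1 sample. The cause was not tested.

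Over all genes 6835 were called higher and 2851 lower with miR-144 and 7229 and 2862 with miR-451a; median centring gave 5034 and 3885, and 5277 and 3992, and quantile normalization 4526 and 4078, and 4733 and 4217. Samples with the same number had deviations that correlated by -0.0122 (control and miR-144), 0.14 (control and miR-451a) and 0.101 (miR-144 and miR-451a) on average. Those with other numbers had 0.00312, -0.0347 and -0.0251. Between control and miR-451a, 3 of 5 samples were most like the one with their own number. The main fit did not take the numbers as pairs, and a weak pairing of those groups is not excluded. With the number as a replicate block 7 members were called against control in each comparison, as without it, and over all genes 6771 were higher and 2864 lower with miR-144 and 7165 and 2865 with miR-451a. Among other pathway genes the block gained Alpl higher with miR-144 (adjusted p = 0.00514 from limma) and Slc29a1 lower with both (adjusted p = 0.0097 and 0.0171), which made 20 and 21 calls. Depth limits Nt5e, which is at or under 3 fragments in every sample.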
